A study of Mus musculus with 2 samples.

Results

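Ccl3, Ccl4, Ltb and Wfdc17 are 4 of the 31053 genes counted in 2 single-cell libraries of mouse bone marrow progenitors, found by their symbols. They were brought together because their summed counts were much lower in the library from irradiated mice. The cells were LSKs, sorted as Lineage-, Sca1+ and c-Kit+, the bone marrow fraction that holds the blood stem cells and the earliest multipotent progenitors. Both libraries came from C57BL/6J mice that were 6 to 8 weeks old, with 1 library of control mice (CTL) and 1 library of mice taken at day 15 after total body irradiation with 5.0 Gy (IR). The number of mice behind each library was not given in the sources used here. Each group is 1 library, so no difference between groups had a replicate check and no test was run. The intervals below are exact 95% intervals, they cover counting error only, and irradiation cannot be told apart from any other difference between the libraries.

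Ccl3 (MIP-1α) and Ccl4 (MIP-1β) are small secreted chemokines that attract leukocytes through G protein-coupled receptors, among them Ccr1 for Ccl3. Ccl3 has long been studied in marrow as an inhibitor of stem and progenitor cell proliferation. Ltb encodes lymphotoxin β, the membrane-anchored TNF family ligand that joins lymphotoxin α in a heterotrimer and signals through Ltbr to the non-canonical NF-κB pathway, with lymphoid organ development as its best known role. Wfdc17 encodes a small secreted protein with a whey acidic protein (WAP) domain, a fold of protease inhibitors, and has been described in mouse macrophages and microglia as dampening inflammatory activation.

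The 3 genes Ccl3, Ccl4 and Wfdc17 lie near each other on chromosome 11 of GRCm38, whereas Ltb lies on chromosome 17. Ccl3 spans chr11:83647844-83649355 on the minus strand, Ccl4 spans chr11:83662584-83664683 on the plus strand, and Wfdc17 spans chr11:83703991-83706268 on the plus strand. The gap between Ccl3 and Ccl4 is 13229 bases and the gap between Ccl4 and Wfdc17 is 39308 bases. Ltb spans chr17:35194439-35196320 on the plus strand, next to Tnf at a distance of 3061 bases, and overlaps the microRNA gene Mir6973a on the same strand. No 31-base stretch of any of the 4 genes' transcripts occurred in another gene's transcripts, so reads of that length would not be shared with a copy.

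Because the 4 genes were low together, the start regions are shown for the 3 that RefSeq's promoter table for GRCm38.p6 listed under their symbols; Ccl4 was not matched. Each sequence runs from 250 bases before the transcription start to 50 bases after it, on the gene's own strand. The start used here is that of RefSeq, which differs from the end of the GENCODE gene spans given above. Capitals mark matches, on either strand, to 5 short motifs. A κB-like motif was searched as GGG and CC with any 5 bases between them, and the Runx motif as TGTGGT. The C/EBP core was searched as TTNNGNAA, where N is any base, the AP-1 motif as TGANTCA, and the TATA box as the letters TATAAA.
Ccl3, chr11:83649329-83649628, minus strand: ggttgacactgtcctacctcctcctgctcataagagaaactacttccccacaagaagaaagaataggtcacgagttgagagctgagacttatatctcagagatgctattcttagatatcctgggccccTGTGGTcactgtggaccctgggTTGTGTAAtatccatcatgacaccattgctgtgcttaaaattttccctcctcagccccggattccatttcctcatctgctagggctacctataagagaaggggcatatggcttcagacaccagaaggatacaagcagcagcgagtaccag
Ltb, chr17:35194257-35194556, plus strand: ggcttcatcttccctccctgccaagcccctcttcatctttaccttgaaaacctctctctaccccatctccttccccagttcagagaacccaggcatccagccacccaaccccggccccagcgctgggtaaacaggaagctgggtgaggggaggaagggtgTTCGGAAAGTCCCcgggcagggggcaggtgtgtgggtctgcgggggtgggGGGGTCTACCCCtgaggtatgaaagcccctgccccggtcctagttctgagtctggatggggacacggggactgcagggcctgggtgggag
Wfdc17, chr11:83703806-83704105, plus strand: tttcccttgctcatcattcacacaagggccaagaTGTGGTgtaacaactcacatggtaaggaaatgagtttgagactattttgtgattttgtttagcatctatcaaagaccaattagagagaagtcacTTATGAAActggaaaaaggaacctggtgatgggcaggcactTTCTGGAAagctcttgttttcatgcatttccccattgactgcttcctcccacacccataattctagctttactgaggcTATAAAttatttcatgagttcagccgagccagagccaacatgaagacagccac
The Ccl3 window held a C/EBP core match whose first base was 100 bases before the start and a Runx match 122 bases before it. The Wfdc17 window held both of these motifs as well, with C/EBP core matches 122 and 81 bases before the start, a Runx match 216 bases before it and a TATAAA match that began 3 bases before the start and ran across it. The Ltb window held the κB-like match GGAAAGTCCC, which overlapped the C/EBP core match TTCGGAAA, and a run of overlapping κB-like matches that began 40 bases before the start. None of the 3 windows held the AP-1 letters. Of the 32851 promoters in the table, 50.8% held a κB-like match and 40.7% a C/EBP core match, so these letters are common. A Runx match was held by 16.8%, a TATAAA match by 13.6% and an AP-1 match by 7.81%. For Ltb and Wfdc17 the GENCODE span begins upstream of the RefSeq start. The run of κB-like matches of Ltb and the TATAAA match of Wfdc17 therefore lie inside the gene spans given above. A match describes the letters and not a bound site.

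The control library kept 7190 cells with a median of 16084.5 UMIs (unique molecular identifiers, each a counted RNA molecule) and the irradiated library kept 5128 cells with a median of 29671. Depth therefore differed, and shares of cells with a UMI are given after each cell was thinned to 5000 UMIs. The libraries shared 11 barcodes among kept cells. The sort genes Kit and Ly6a, which encode c-Kit and Sca1, were detected in both libraries, with Kit at 132 and 73.5 UMIs per 1000000 UMIs (CPM) and Ly6a at 156 and 217 CPM in control and irradiated cells. Of the 8 macrophage markers, Adgre1, C1qc, Mrc1 and Cd5l were below 1 CPM in both libraries and the summed list stood at 16.7 and 18.0 CPM. The summed list of 10 T, NK and innate lymphoid markers stood at 213 and 322 CPM, most of it Nkg7, with Cd3e, Cd3g and Il2rb below 1 CPM in both. The 8 mature neutrophil markers summed to 348 CPM in the control library and 97.5 CPM in the irradiated library.

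Over all cells the irradiated level of the 4 genes was lower by 4.60-fold to 6.40-fold. Ccl3 had 40737 UMIs in the control library and 7542 in the irradiated library, or 295 and 46.1 CPM (log2 ratio -2.68, interval -2.71 to -2.64). Ccl4 had 53431 and 13761 UMIs, or 387 and 84.0 CPM (log2 ratio -2.20, interval -2.23 to -2.18). Both chemokine genes were thus far apart between the libraries, Ccl3 more so than Ccl4. Ltb had 11369 and 2780 UMIs, or 82.3 and 17.0 CPM (log2 ratio -2.28, interval -2.34 to -2.22). Wfdc17 had 47405 and 12157 UMIs, or 343 and 74.2 CPM (log2 ratio -2.21, interval -2.24 to -2.18). These are the values that the genes were chosen on, so they describe the choice. All 4 were at least 2-fold lower, as were 3.48% of the 7362 genes with a mean CPM of at least 10, and from the lowest ratio upwards Ccl3 stood at rank 5, Ltb at 18, Wfdc17 at 20 and Ccl4 at 21. At the 2-fold limit itself, Ttc3 and Ctso lay just inside, both with a log2 ratio of -1.0, and Csad and Nrgn just outside, with 26.6 and 13.3 CPM and with 137 and 68.9 CPM.

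The lower sums came with fewer cells that held any UMI of each gene and, in those cells, with fewer UMIs. In thinned cells, Ccl3 was detected in 43.9% of control and 13.9% of irradiated cells, and its mean among cells with a UMI was 3.98 and 2.13 UMIs. Ccl4 was detected in 52.8% and 21.6%, with means of 4.41 and 2.77 UMIs among cells with a UMI. Ltb was detected in 31.7% and 9.19%, with means of 1.85 and 1.62, and Wfdc17 in 51.8% and 19.8%, with means of 4.15 and 2.78. The difference was thus wider in the share of cells than in the mean of those cells, and for Ltb the means were close. Without thinning, the shares were 61.2% and 34.3% for Ccl3, 71.6% and 45.3% for Ccl4, 55.4% and 24.3% for Ltb, and 70.1% and 45.5% for Wfdc17. As a low reference, the 470 thinned erythroid-primed-like cells of the irradiated library had a UMI of Ccl3 in 0.851%, of Ccl4 in 2.77%, of Ltb in 2.98% and of Wfdc17 in 1.49% of cells. Their median was 24037.5 UMIs before thinning. For each gene, the 10 highest of these irradiated cells held 78.0% of the Ccl3, 60.6% of the Ccl4, 46.3% of the Ltb and 54% of the Wfdc17 UMIs. Free RNA in the droplets and a few cells with these genes were therefore not told apart in this reference. The control library had 32 such cells after thinning, too few for a firm reference, with a UMI of Ccl3 in 6.25%, of Ccl4 in 15.6%, of Ltb in 3.12% and of Wfdc17 in 12.5% of cells.

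The 4 genes were also counted together in each cell. They were chosen on lower irradiated sums, so these counts too describe the choice. In the control library 17.3% of thinned cells held none of the 4 genes and 7.69% (548 cells) held all of them. In the irradiated library 56.8% held none and 0.493% (25 cells) held all of them. Cells with 3 of the genes made up 24.0% of control and 4.28% of irradiated cells, and cells with just 1 made up 24.7% and 27.1%. Most control cells therefore held 2 of the genes or more, while most irradiated cells held none. The HSC-like and lymphoid-primed-like cells described below made up 33.0% and 25.7% of control but 8.72% and 6.94% of irradiated cells. The part of this mix in the counts was not tested.

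Each gene's UMIs sat in few cells, and in fewer in the irradiated library. In the control library 50% of the Ccl3 UMIs were in 736 cells, against a median of 1609 cells for the 191 genes whose CPM was within 1.25-fold of that of Ccl3. The corresponding counts were 710 cells for Ccl4, 794 for Ltb and 849 for Wfdc17, against medians of 1644, 1286 and 1615 for genes of like level. In the irradiated library 50% of the UMIs lay in 267, 304, 222 and 246 cells for Ccl3, Ccl4, Ltb and Wfdc17, against 922, 1074, 598 and 1051 for genes of like level. All 4 genes were thus more concentrated than typical genes of their level in both libraries. The variance of the thinned counts was 7.81, 9.73, 2.45 and 7.05 times their mean across control cells for Ccl3, Ccl4, Ltb and Wfdc17, whereas the medians for genes of like level lay between 1.05 and 1.17. No gene of like level exceeded Ccl4 in this ratio, 1 of 191 exceeded Ccl3, 4 of 149 exceeded Wfdc17 and 6 of 714 exceeded Ltb.

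A handful of cells carried more weight in the irradiated library. The 10 highest cells held between 1.86% and 2.18% of each gene's UMIs in the control library and between 5.68% and 7.30% in the irradiated library. The single highest irradiated cell for Ccl3 was megakaryocyte-primed-like and held 200 UMIs, against 141 in the highest control cell. For Wfdc17 the 10 highest cells included 6 lymphoid-primed-like and 3 HSC-like cells in the control library and 6 and 2 in the irradiated library. For Ccl3 in the control library they were 3 HSC-like, 3 lymphoid-primed-like and 4 megakaryocyte-primed-like cells.

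**Figure D1:**
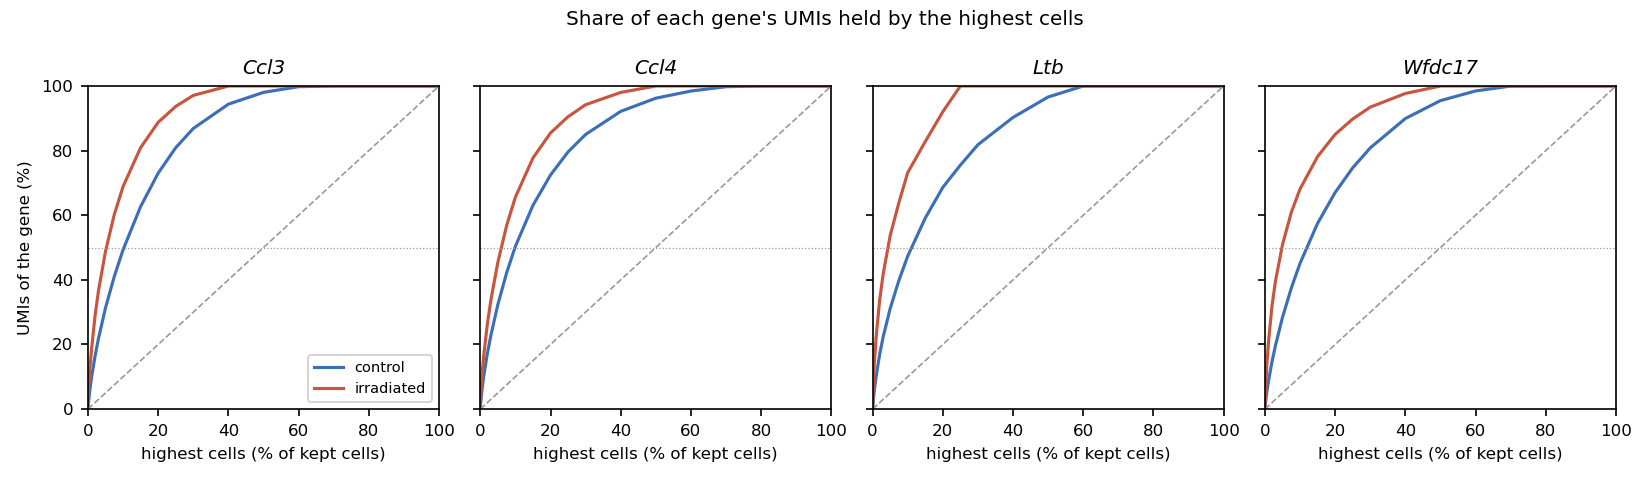
Cumulative share of each gene's UMIs (vertical axis, %) against the highest cells ranked by their UMIs of that gene (horizontal axis, % of kept cells), for the control library (blue) and the irradiated library (red), with the dashed line for an even spread and the dotted line at 50%. The irradiated curves lie above the control curves in all 4 panels, with 50% of the Ccl3 UMIs in 267 irradiated and 736 control cells.

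The cells fell into 12 clusters, built without the 4 genes, which were named from marker genes and joined into 8 marker-named classes and 3 clusters left without a name. HSC-like cells (Hlf and Procr among the leading genes) made up 33.0% of control and 8.72% of irradiated cells, and lymphoid-primed-like cells (Dntt, Satb1, Flt3) made up 25.7% and 6.94%. Neutrophil-primed-like cells (Elane, Ms4a3) made up 1.46% and 20.2%, megakaryocyte-primed-like cells (Pf4, Itga2b) 3.21% and 10.3%, and erythroid-primed-like cells (Car1, Klf1) 0.529% and 9.48%. The makeup of the sorted cells thus differed widely between the libraries. The first unnamed cluster (15.2% and 13.4%) had Nefh, Otos and Bok as its leading genes by fold and is called here by the replication genes Ung and Lig1, which came next. The other unnamed clusters were led by the mitotic genes Nusap1 and Cenpf (14.4% and 11%) and by Mcpt8, Ccl9 and Cebpa (3.85% and 16.8%).

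Within the control library the 2 chemokine genes and Wfdc17 were at their highest in lymphoid-primed-like cells, and Ltb in HSC-like cells. Ccl3 stood at 656 CPM in lymphoid-primed-like cells, 264 in HSC-like cells, 201 in the Ung and Lig1 cluster, 193 in the Mcpt8 and Ccl9 cluster and 191 in the Nusap1 and Cenpf cluster. The intervals of these 3 clusters overlapped each other and that of the T, NK or innate lymphoid-like cells at 181 CPM. Ccl3 was lower in megakaryocyte-primed-like cells (135 CPM) and neutrophil-primed-like cells (89.1 CPM), and lowest in the B lineage-like, erythroid-primed-like and dendritic-like cells at 25.6, 21.6 and 12 CPM, whose intervals overlapped. Ccl4 followed this order in part, with 786 CPM in lymphoid-primed-like cells. Next came HSC-like cells at 398 and T, NK or innate lymphoid-like cells at 391 CPM, whose intervals overlapped. The latter class had 50 control cells. Its 10 highest held 88.4% of its Ccl4, 94.3% of its Ccl3 and 59.6% of its Ltb UMIs, so its levels rest on few cells. Dendritic-like cells, among the lowest for Ccl3, stood at 138 CPM. Ccl4 was lowest in erythroid-primed-like, neutrophil-primed-like and B lineage-like cells at 61.1, 58.3 and 50.3 CPM, with overlapping intervals. Wfdc17 ran from 864 CPM in lymphoid-primed-like and 310 in HSC-like cells to 23.8 in megakaryocyte-primed-like and 17.0 in B lineage-like cells, the last 2 with overlapping intervals. As summed, the megakaryocyte-primed-like cells were middling for Ccl3 and Ccl4. Their Wfdc17 level was low, no higher than the 27.6 CPM of the control erythroid-primed-like cells. However, the 10 highest of the 231 control megakaryocyte-primed-like cells held 83.0% of their Ccl3 and 76% of their Ccl4 UMIs. Ccl3 was detected in 10.9% of these cells after thinning. Their mast cell and basophil markers summed to 1604 CPM, beside 1082 CPM for megakaryocyte-primed markers. Ltb ran from 189 CPM in HSC-like cells through 141 in T, NK or innate lymphoid-like and 105 in lymphoid-primed-like cells to 7.19, 6.58 and 6.10 CPM in erythroid-primed-like cells, neutrophil-primed-like cells and the Mcpt8 and Ccl9 cluster, the last 3 with overlapping intervals.

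In the irradiated library the top of each order was held by the same classes. Ccl3, Ccl4 and Wfdc17 were highest in lymphoid-primed-like cells at 191, 464 and 492 CPM, and Ltb was highest in HSC-like cells at 121 CPM, with an interval overlapping that of T, NK or innate lymphoid-like cells at 120 CPM. HSC-like cells came next for Wfdc17 (227 CPM), and after the T, NK or innate lymphoid-like cells for Ccl4 (229 against 282 CPM). For Ccl3 they stood lower, at 38.6 CPM, below the Mcpt8 and Ccl9 cluster at 61.6 CPM. Their interval overlapped those of the neutrophil-primed-like cells (44.4 CPM) and the Nusap1 and Cenpf cluster (43.9 CPM). The T, NK or innate lymphoid-like class had 61 irradiated cells, and the 10 highest held 81.5% of its Ccl4 and 73.4% of its Ltb UMIs. Its own summed markers stood at 2106 CPM in the control and 1013 CPM in the irradiated library. Its neutrophil-primed markers stood at 202 and 3155 CPM.

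**Figure D2:**
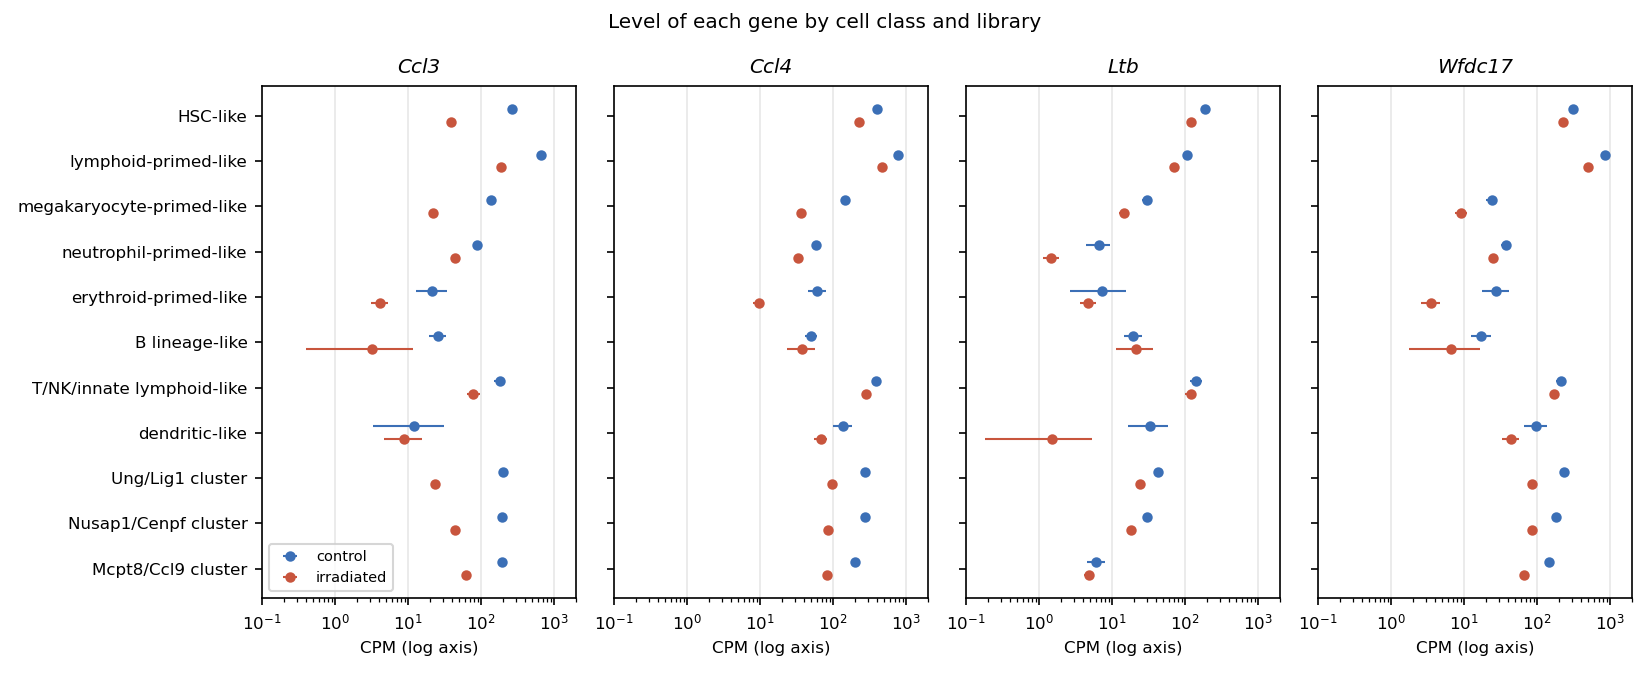
Level of each gene (horizontal axis, CPM on a log scale) in the 11 classes and clusters of the control library (blue) and the irradiated library (red), with exact 95% Poisson intervals for counting error. Lymphoid-primed-like cells are highest for Ccl3, Ccl4 and Wfdc17 and HSC-like cells for Ltb in both libraries.

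The 7 classes and clusters with at least 100 cells in each library were compared one by one, which sets aside the different makeup of the libraries as far as the clusters resolve it. As summed, all 4 genes had a lower level in the irradiated library in each of the 7, with the exceptions under other settings named below, and the size differed by gene. In HSC-like cells Ccl3 stood at 264 and 38.6 CPM (8427 and 258 UMIs) (log2 ratio -2.77, interval -2.96 to -2.59). Ccl4 stood at 398 and 229 CPM there (-0.80, -0.88 to -0.72), Ltb at 189 and 121 (-0.63, -0.74 to -0.53) and Wfdc17 at 310 and 227 (-0.45, -0.53 to -0.37). Ccl3 alone of the 4 was at least 2-fold lower in HSC-like cells, where 0.587% of 7660 genes were. The Ccl3 log2 ratio of the class was -3.29 with finer clusters, -3.79 with coarser clusters, -4.89 with marker genes left out of the clustering, -4.96 with each cell named by its own markers and -3.75 with each library's 10 highest cells set aside. The Wfdc17 ratio of this class depended on the clustering and was above 0, at 0.08 and 0.66, with finer clusters and with marker genes left out of the clustering. The shares of thinned HSC-like cells with a UMI were 35.0% and 8.64% for Ccl3, 50.1% and 35.9% for Ccl4, 52.2% and 37.7% for Ltb, and 41.8% and 30.9% for Wfdc17, with class medians of 12021.5 and 14223 UMIs before thinning. The 10 highest irradiated HSC-like cells held 52.7% of the Ccl3 UMIs of the class, against 7% in the control library. The makeup of the class differed as well, with summed HSC markers at 573 and 409 CPM, erythroid-primed markers at 625 and 395, lymphoid-primed markers at 295 and 157 and neutrophil-primed markers at 794 and 1139, and their part in the differences was not tested.

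In lymphoid-primed-like cells Ccl3 again had the lowest ratio. It stood at 656 and 191 CPM (log2 ratio -1.78, interval -1.86 to -1.70), and was detected in 70.1% and 42% of thinned cells. Ccl4 stood at 786 and 464 CPM (-0.76, -0.81 to -0.71), Ltb at 105 and 70.5 (-0.57, -0.72 to -0.44) and Wfdc17 at 864 and 492 (-0.81, -0.87 to -0.76). Only Ccl3 of the 4 genes was at least 2-fold lower, beside 1.02% of 7271 genes. Ccl4 and Wfdc17 passed that limit too under other settings, with log2 ratios of -1.34 and -1.74 with each cell named by its own markers, -1.46 and -1.53 with neighbours from all cells, -1.43 and -1.27 with finer clusters, and -1.04 and -1.12 with each library's 10 highest cells set aside. The summed lymphoid-primed markers of this class stood at 1663 and 1698 CPM, and its macrophage markers at 15.3 and 16.0 CPM. Its HSC markers stood at 109 and 56.1 CPM, its mature neutrophil markers at 62.7 and 10.2, its neutrophil-primed markers at 650 and 1143 and its B lineage markers at 52.7 and 84.2, and their part in the differences was not tested.

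In the cycling clusters 3 of the 4 genes were at least 2-fold lower. In the Ung and Lig1 cluster Ccl3 stood at 201 and 23.7 CPM (log2 ratio -3.08, interval -3.22 to -2.94). This was the lowest ratio of the 4 genes among the 7 classes and clusters compared in the main setting. Ccl3 was lower still in HSC-like cells under the other settings named above and in the smaller HSC-like cluster described below. Ccl4 stood at 275 and 97.7 CPM there (-1.49), Wfdc17 at 235 and 85.9 (-1.45) and Ltb at 42.9 and 24.4 (-0.81). The first 3 genes passed the 2-fold limit, as did 0.662% of 7252 genes. In the Nusap1 and Cenpf cluster Ccl3, Ccl4 and Wfdc17 passed it too, with log2 ratios of -2.13, -1.71 and -1.10, beside 0.687% of 7279 genes, while Ltb stood at 29.9 and 18.3 CPM (-0.71). The summed HSC markers stood at 205 and 148 CPM in the first of these clusters and its lymphoid-primed markers at 402 and 186 CPM, and their part in the differences was not tested.

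In the megakaryocyte-primed-like cells and the Mcpt8 and Ccl9 cluster the control values rested on fewer cells, 231 and 277. In megakaryocyte-primed-like cells all 4 genes were at least 2-fold lower, beside 1.25% of 7521 genes, with Ccl3 at 135 and 21.7 CPM (-2.64), Ccl4 at 144 and 36.3 (-1.99), Ltb at 30.4 and 14.4 (-1.08) and Wfdc17 at 23.8 and 9.10 (-1.39). The 10 highest cells held 83.0% of the Ccl3 UMIs of this class in the control and 91.3% in the irradiated library, where 1 cell held 200 of 265. With the 10 highest cells of both libraries set aside, Ltb and Wfdc17 were no longer 2-fold lower (-0.83 and -0.90). The Ccl4 ratio was -1.10 with marker genes left out of the clustering and -1.16 with finer clusters, and the Ccl3 ratio was -1.80 after thinning and -3.61 without the 10 highest cells. Wfdc17 was detected in 6.99% of thinned control cells of this class, no more than the 12.5% of the 32 control erythroid-primed-like cells. That reference is too small to be firm, and the Wfdc17 ratio here is not read as a difference. The control shares of Ccl3 (10.9%), Ccl4 (17.5%) and Ltb (13.1%) in this class also lay within the intervals of that reference. The summed mast cell and basophil markers of the same class stood at 1604 and 283 CPM, and their part in the difference was not tested. In the Mcpt8 and Ccl9 cluster the 3 genes at the minimum level, Ccl3, Ccl4 and Wfdc17, were at least 2-fold lower (-1.64, -1.28 and -1.12), beside 0.352% of 6818 genes. Ltb was at 6.10 and 4.77 CPM there (log2 ratio -0.36, interval -0.81 to 0.12), which counting error does not separate from equal levels. Its ratio was 0.07 with each cell weighted equally and 0.57 without the 10 highest cells of each library, and its share of thinned irradiated cells, 2.34%, was below the 2.98% of erythroid-primed-like cells. The summed lymphoid-primed markers of the cluster stood at 348 and 187 CPM and its monocyte-primed markers at 449 and 267 CPM, and their part in the differences was not tested.

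Neutrophil-primed-like cells differed least for Ccl3. It stood at 89.1 and 44.4 CPM (log2 ratio -1.0, interval -1.16 to -0.84), just past the 2-fold limit that 0.49% of 6731 genes passed. Ccl4 stood at 58.3 and 33.5 CPM (-0.80) and Wfdc17 at 38.1 and 25.1 (-0.60). Ccl4 was detected in 12.6% of thinned control cells, below the 15.6% of the 32 control erythroid-primed-like cells. That reference is too small to be firm, with an interval of 5.28% to 32.8%. In irradiated cells of this class Ccl4 was detected in 10.6%, against 2.77% of irradiated erythroid-primed-like cells. The control side is not resolved, so the Ccl4 ratio here is not read as a difference. Ltb, below the minimum level, had 28 UMIs in the control and 68 in the irradiated cells. A UMI of Ltb was found in 0.676% of thinned irradiated cells, no more than the 2.98% of irradiated erythroid-primed-like cells. The 10 highest of the 105 control cells held 58.8% of their Ccl3 UMIs, 71.4% of Ccl4 and 64.8% of Wfdc17. With the 10 highest cells of both libraries set aside the log2 ratios were above 0, at 0.15 for Ccl3, 0.79 for Ccl4 and 0.63 for Wfdc17. That step takes away 10 of 105 control cells but 10 of 1038 irradiated cells, so it lowers the control level more by its construction. With each cell weighted equally the Ccl3 ratio was -0.88, and after thinning it was -0.61. The summed mature neutrophil markers of the class stood at 10309.5 CPM in the control and 306 CPM in the irradiated library, and their part in the result was not tested.

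**Figure D3:**
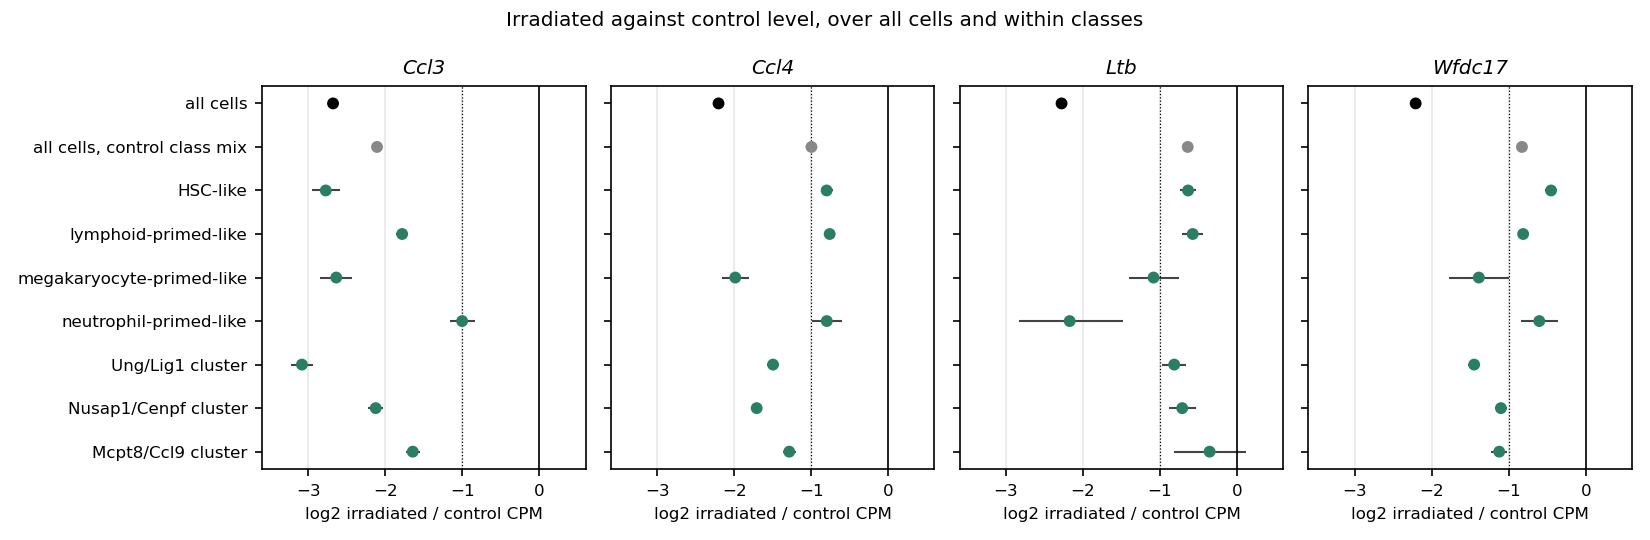
Log2 ratio of irradiated to control CPM (horizontal axis) for each gene over all cells (black), over all cells at the control library's class mix (grey) and within the 7 classes and clusters compared (green), with exact 95% intervals for counting error, a solid line at equal levels and a dotted line at 2-fold lower. Ccl3 is at or past the dotted line in all 7, whereas Ltb passes it in megakaryocyte-primed-like cells and, below the minimum level, in neutrophil-primed-like cells.

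Holding the mix of classes fixed narrowed the ratios of Ccl4, Ltb and Wfdc17 more than that of Ccl3. With the class shares of the control library applied to both, Ccl3 stood at 295 and 68.4 CPM, 4.31-fold lower (log2 -2.11). Ccl4 stood at 387 and 194 CPM, 1.99-fold lower (-1.0), Ltb at 82.3 and 52.8 CPM, 1.56-fold lower (-0.64), and Wfdc17 at 343 and 193 CPM, 1.78-fold lower (-0.83). With the shares of the irradiated library instead, the folds were 3.59 for Ccl3, 2.32 for Ccl4, 1.67 for Ltb and 1.98 for Wfdc17. The classes are clusters, and differences of mix inside a cluster are not removed by this step.

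The source of each gene's UMIs moved accordingly. Lymphoid-primed-like cells held 45.3% of the Ccl3 UMIs in the control library and 17.6% in the irradiated library, whereas the Mcpt8 and Ccl9 cluster held 4.11% and 27.6% and neutrophil-primed-like cells 0.930% and 27.4%. For Wfdc17 the lymphoid-primed-like cells held 51.3% and 28.1%. HSC-like cells held 52.9% of the Ltb UMIs in the control library and 29.2% in the irradiated library.

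The balance between the neighbouring chemokine genes differed between the libraries. Over all cells there were 0.762 Ccl3 UMIs for each Ccl4 UMI in the control library (0.753 to 0.772) and 0.548 in the irradiated library (0.533 to 0.564). In HSC-like cells the ratio was 0.664 (0.646 to 0.683) and 0.169 (0.148 to 0.193), and in lymphoid-primed-like cells 0.834 and 0.411. In the Ung and Lig1 cluster it was 0.729 and 0.243. Ccl3 was thus scarcer relative to Ccl4 in irradiated cells of these classes, with intervals that did not overlap. The ratio was 0.692 and 0.518 in the Nusap1 and Cenpf cluster, 0.965 and 0.752 in the Mcpt8 and Ccl9 cluster and 0.94 and 0.598 in megakaryocyte-primed-like cells. In neutrophil-primed-like cells it was 1.53 (1.30 to 1.80) and 1.33 (1.24 to 1.42), with overlapping intervals.

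**Figure D4:**
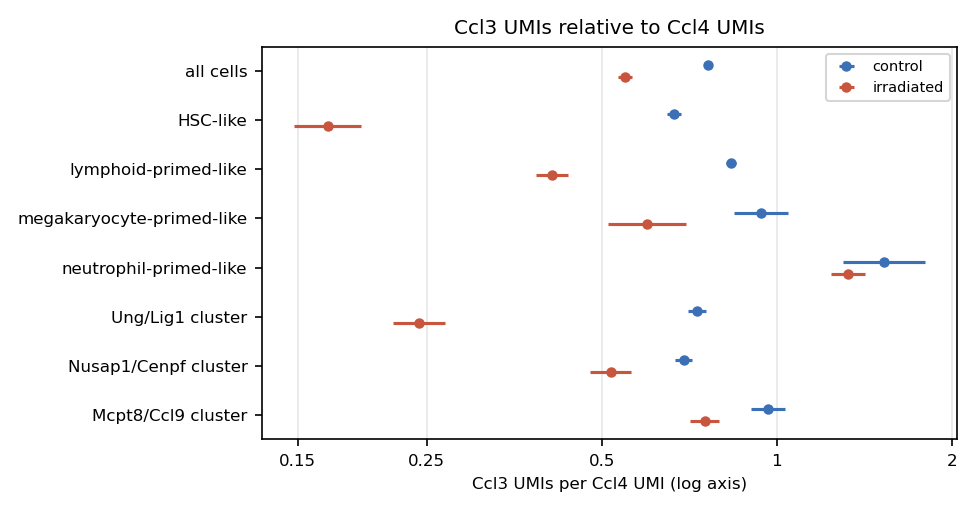
Ccl3 UMIs per Ccl4 UMI (horizontal axis, log scale) over all cells and in the 7 classes and clusters compared, for the control library (blue) and the irradiated library (red), with exact 95% intervals. The irradiated ratio lies below the control ratio in each, from 0.664 to 0.169 in HSC-like cells, and the intervals overlap in neutrophil-primed-like cells, at 1.53 and 1.33.

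Within the HSC-like class the 4 genes did not pattern alike. The larger cluster, led by Hlf, Vldlr and Rgs1, held 1595 control and 322 irradiated cells and had log2 ratios of -2.73 for Ccl3, -0.78 for Ccl4, -0.81 for Ltb and -0.65 for Wfdc17. The smaller cluster, led by Pdzk1ip1, Meg3, Hes1, Mllt3 and Mmrn1, held 781 and 125 cells. There Ccl3 stood at 101 and 3.28 CPM (893 and 5 UMIs) (log2 ratio -4.94, interval -6.57 to -3.72), and Ccl4 at 267 and 118 CPM (-1.18). Ltb stood at 295 and 247 CPM (-0.26, -0.42 to -0.10), above its levels of 148 and 84.4 CPM in the larger cluster, and was detected in 67.8% and 59.8% of thinned cells. The 10 highest irradiated cells held 33.5% of those Ltb UMIs, and with the 10 highest cells of both libraries set aside the levels were 273 and 164 CPM (-0.74). Ccl3 was detected in 0.820% of thinned irradiated cells of this cluster, no more than the 0.851% of irradiated erythroid-primed-like cells. Wfdc17 stood at 119 and 168 CPM in the smaller cluster (log2 ratio 0.50, interval 0.30 to 0.70), but 10 irradiated cells held 73.0% of those UMIs, and with the 10 highest cells of both libraries set aside the levels were 78.6 and 45.3 CPM (-0.79). Setting aside 10 cells takes a larger share of the 125 irradiated than of the 781 control cells.

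Across single control HSC-like cells the chemokine genes and Wfdc17 tended to occur together, whereas Ltb did not follow them there. Among thinned control HSC-like cells, Ccl4 was detected in 63.0% of the 824 cells with Ccl3 and in 43.2% of those without, and Wfdc17 in 63.0% and 30.5%. Ltb was detected in 51.9% of cells with Ccl3 and 52.4% of cells without. Pearson's r of log2(UMIs + 1) over the 2357 cells was 0.32 for Ccl3 with Ccl4, 0.34 for Ccl3 with Wfdc17 and 0.22 for Ccl4 with Wfdc17, and lay between -0.03 and 0.01 for Ltb with each of the other 3. In lymphoid-primed-like cells Ccl4 was detected in 79.2% of control cells with Ccl3 and 58.2% of those without, and in 75.2% and 50.5% in the irradiated library. The r of Ccl3 with Ccl4 was 0.39 there in both libraries, over 1846 and 355 cells. In the control cells of this class Ltb had an r of 0.16 with Wfdc17, beside 0.17 for Ccl4 with Wfdc17, and was detected in 36.5% of cells with Ccl4 and 30.2% of those without. The cells of each correlation share a library, an equal number of UMIs and a class, and the values are descriptions with no test.

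Over all 7124 thinned control cells the genes most like each of the 4 were taken from 10781 detected genes. For Ccl3 they were Ccl4 (r = 0.45), Wfdc17 (0.39), the histone variant gene H2afy (0.32), the early activation antigen gene Cd69 (0.25) and Emb (0.25). For Ccl4 they were Ccl3, Wfdc17 (0.33), H2afy (0.24), the phosphatase gene Dusp5 (0.23) and Fos (0.23). For Wfdc17 they were H2afy (0.41), Ccl3, the long intergenic RNA Gm32554 (0.34), the progenitor cytokine receptor gene Flt3 (0.33) and Ccl4. The first 3 genes therefore appeared in each other's lists, and H2afy in all 3 lists. For Ltb they were Ifitm1 (0.30), Shisa5 (0.29), the AP-1 gene Junb (0.29), the stem cell transcription factor gene Hlf (0.29) and the carbonic anhydrase gene Car2 (0.28), with no overlap with the other lists. Over the 5069 thinned irradiated cells, Ccl3 with Ccl4 had an r of 0.36, Ccl4 with Wfdc17 0.32, Ltb with Hlf 0.25 and Ltb with Ifitm1 0.06. Gm32554, on chromosome 5, had 25 CPM in the control and 1.5 CPM in the irradiated library, and Flt3 127 and 46.4 CPM.

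Over all cells, few other chemokine genes reached the minimum level, and none of those was 2-fold lower. Of 17 other CC chemokine genes, 3 reached the minimum level and none was 2-fold apart, with a median log2 ratio of -0.46 beside -0.02 for all genes. Ccl9, which lies in the same chromosome 11 cluster, had 76.2 CPM in the control and 110 CPM in the irradiated library, Ccl5 had 15.5 and 11.3 CPM, and Ccl27a had 18.3 and 9.58 CPM. Of 16 CXC, C and CX3C chemokine genes, 3 reached the minimum, with Cxcl10, an interferon-inducible chemokine, at least 2-fold higher (6.54 and 24.9 CPM, beside 1.25% of all genes that were higher), Cxcl2 at 25 and 14.2 CPM and the platelet chemokine gene Pf4 at 30.2 and 40.7 CPM. Within single classes some of these genes were further apart, in both directions. Ccl5 stood at 22.9 and 8.92 CPM in lymphoid-primed-like cells but at 3.04 and 22.2 CPM in the Nusap1 and Cenpf cluster. Cxcl2 stood at 16.1 and 5.14 CPM in that cluster but at 9.04 and 20.7 CPM in megakaryocyte-primed-like cells. Over all cells, the 10 highest cells held 49.4% and 51.9% of the Ccl5 UMIs. None of the 4 listed receptors of Ccl3 and Ccl4 reached the minimum, and Ccr1 had 0.883 and 3.19 CPM.

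The genes around Ccl3, Ccl4 and Wfdc17 on chromosome 11 differed among themselves. Wfdc18, 2747 bases from Wfdc17, had 2227 UMIs in the control and 184 in the irradiated library, or 16.1 and 1.12 CPM (log2 -3.84), just under the minimum level. Wfdc21 had 4.30 and 12.7 CPM (log2 1.57) and the next gene, Heatr6, had 26.2 and 24.1 CPM. Over all cells the neighbouring Ccl3, Ccl4, Wfdc17 and Wfdc18 were thus all low in the irradiated library. Ccl9 on one side and Wfdc21 and Heatr6 on the other were not 2-fold lower over all cells. Within neutrophil-primed-like cells, however, Wfdc21 stood at 131 CPM in the control and 43.3 CPM in the irradiated library, and Ccl9 at 107 and 151 CPM. In the other classes compared Wfdc21 was far below the minimum level. The 10 highest control cells held 83.7% of its control UMIs. The part of the class mix in these values was not tested. Of 13 other WAP domain genes, Slpi, a leukocyte protease inhibitor gene, was the 1 at the minimum level, at 23.9 and 65.2 CPM over all cells (log2 1.45). Its direction differed by class, with 287 and 169 CPM in neutrophil-primed-like cells but 12.3 and 24.6 CPM in lymphoid-primed-like cells.

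The list of lymphotoxin and TNF receptors with their adaptors held no gene 2-fold apart at the minimum level. Ltbr, the receptor gene of lymphotoxin β, had 15.8 and 17.4 CPM, and the median log2 ratio of the 7 genes at that level was 0.10. Among them Tnfrsf1a had 37.3 and 39.3 CPM and Birc2 58.2 and 35.7 CPM, and Birc3, an adaptor gene like Birc2, 17.0 and 9.13 CPM. Below the minimum level, Map3k14, the kinase gene of the non-canonical NF-κB pathway, had 8.62 and 3.93 CPM and Relb, its transcription factor gene, had 11.6 and 5.57 CPM. Their log2 ratios were -1.13 and -1.05, but both were named after these values were seen. The share of all genes as low is not given below the minimum level, so no result is read from them. Of 16 other TNF family ligand genes, 2 reached the minimum and neither was 2-fold apart, Tnf at 12.7 and 7.66 CPM and Tnfsf10 at 21.8 and 12.1 CPM. Tnf, the neighbour of Ltb, had a log2 ratio of -0.73 over all cells, against -2.28 for Ltb, which was chosen on that value. At the control class mix the Ltb ratio was -0.64, and no such value was computed for Tnf. In HSC-like cells Tnf stood at 11.3 and 8.39 CPM and Ltb at 189 and 121 CPM. In lymphoid-primed-like cells Tnf stood at 24.0 and 26.5 CPM and Ltb at 105 and 70.5 CPM.

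Signalling genes were lower in part. Of 12 NF-κB factors and feedback genes at the minimum level, 2 were at least 2-fold lower, Nfkbiz (65.5 and 25.5 CPM) and Zfp36 (409 and 172 CPM), which encodes a protein that destabilises cytokine mRNAs, and the list's median log2 ratio was -0.61, beside 3.48% of all 7362 genes that were lower. Of 16 immediate early genes, 11 were at least 2-fold lower, with a median of -1.20, among them Fos (1050 and 514 CPM), Egr1 (269 and 85.0 CPM) and Dusp2 (304 and 111 CPM). The other 8 were Fosb, Jund, Nr4a1, Dusp1, Btg2, Klf2, Klf4 and Klf6. In HSC-like cells Fos stood at 1557 and 1115 CPM and Egr1 at 610 and 349 CPM, so the difference was narrower there. The part of these genes in the result was not tested. Of 6 interleukin and growth factor genes at the minimum, Il18 was lower (15.8 and 4.36 CPM) and Osm, oncostatin M, was higher (13.2 and 34.8 CPM), while Tgfb1 had 188 and 217 CPM and Il12a 65.7 and 34.2 CPM.

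**Figure D5:**
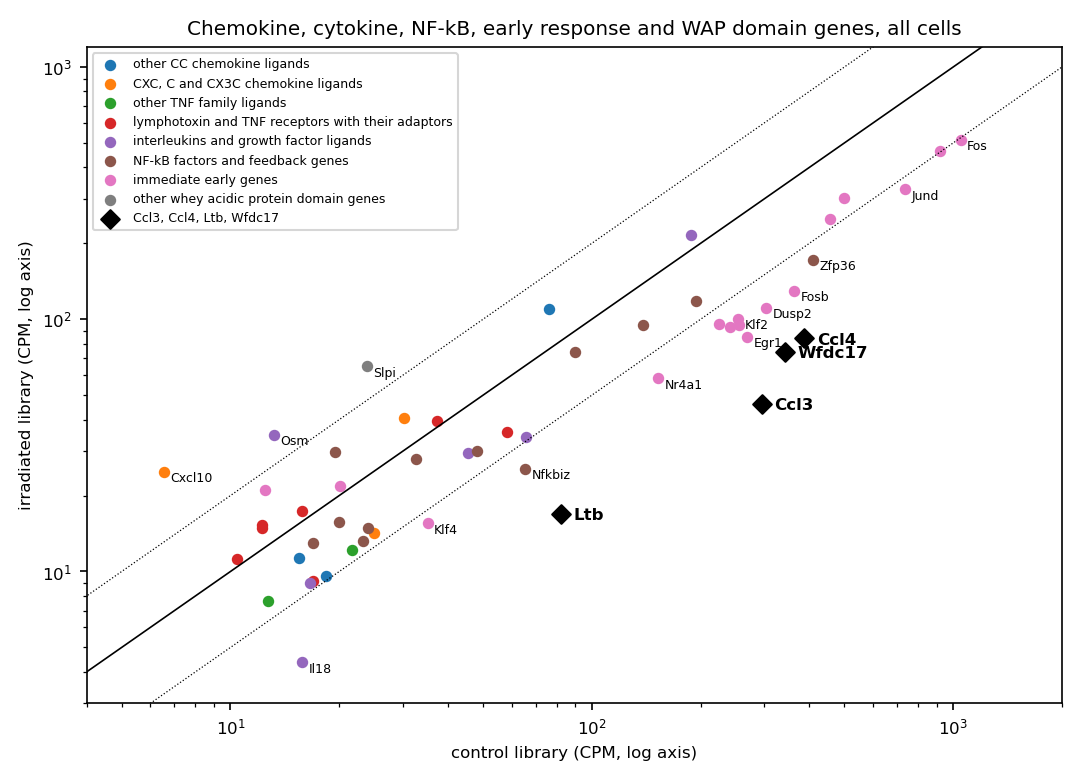
CPM in the control library (horizontal axis, log scale) against CPM in the irradiated library (vertical axis, log scale) for the listed genes at a mean CPM of at least 10 and for Ccl3, Ccl4, Ltb and Wfdc17 (black diamonds), with a solid line at equal levels and dotted lines at 2-fold. The genes past 2-fold are labelled except Btg2, Dusp1 and Klf6, which lie beside Klf2. The 4 diamonds were chosen on these values, so their place further below the lower dotted line than the immediate early genes describes the choice.

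The barcodes left out by the filters held few UMIs of these genes, and their levels differed in the same direction. In the 496 control and 468 irradiated barcodes left out, Ccl3 stood at 204 and 55.0 CPM, Ccl4 at 311 and 133, Ltb at 90.7 and 15.6, and Wfdc17 at 82.7 and 49.8.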

How the data were processed

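The deposited files held UMI counts per gene and barcode for 1 control and 1 irradiated library, as whole numbers with no normalization by the authors, per the file headers and the values. Per the submitters' processing notes, reads were processed with Cell Ranger 2.1.1 on mm10, per the file headers the matrix was written by software version 3.1.0, and per the labels' protocols the libraries were made with a 10x Genomics single cell 3' v2 kit; these statements were not reconciled. Of 7686 control and 5596 irradiated barcodes, 7190 and 5128 were kept, with at least 1000 UMIs, 500 genes and at most 10% mitochondrial UMIs. The kept cells held 138149626 and 163772972 UMIs, so that 3 counts, the limit that a count of 0 allows, amount to 0.0217 and 0.0183 CPM. Counts come from 3' tags and were scaled to CPM of summed UMIs, so levels are not compared between genes. Thinning to 5000 UMIs left out 66 control and 59 irradiated cells.

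Cells were clustered with Scanpy 1.11.5 and leidenalg 0.10.2 (2000 variable genes without the 4 genes, cell cycle, ribosomal and mitochondrial genes, 30 principal components, 15 neighbours from each library, resolution 1). A cluster was named by marker lists when at least 3 of a list's markers were detected and the list led among its top genes. Scrublet called 1 control and 16 irradiated doublets, 0.0139% and 0.312% of cells, which means that it did not work, so doublets were kept and an alternative left out the 6% of cells with the highest scores. Ratios carry exact conditional Clopper-Pearson intervals and levels exact Poisson intervals, computed with SciPy 1.17.1. A gene was counted as apart at a CPM ratio of at least 2 where the mean of both libraries reached 10 CPM, and classes were compared with at least 100 cells in each library. Likeness is Pearson's r of log2(UMIs + 1) among genes found in at least 1% of thinned control cells. The scripts were tested on simulated data. Gene locations came from GENCODE M21, which held 31011 of the 31053 gene IDs, and promoter sequences from RefSeq's GRCm38.p6.

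The 4 genes, the gene lists and the markers were chosen with earlier results of these data known. The text names all 4 genes, the listed genes past the size rule and otherwise up to 2 per list with the highest mean CPM, and the 5 genes of highest likeness for each. Ccl5, Wfdc18, Wfdc21 and Heatr6 were named for their position after their values were seen, and Birc3, Map3k14 and Relb after theirs were seen.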

Additional observations from a re-analysis of the deposited data

Results flagged for a closer look

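Wfdc17 in the smaller HSC-like cluster, led by Pdzk1ip1 and Meg3, had a log2 ratio of irradiated to control CPM of 0.50, while in the larger HSC-like cluster it was -0.65. Both clusters are drawn from the same contrast and moved in opposite directions, and the difference between them was not tested, because each group is 1 library. The value rests on 10 irradiated cells that held 73.0% of the cluster's Wfdc17 UMIs, and without the 10 highest cells of each library it was -0.79. That step takes away 10 of 125 irradiated cells but 10 of 781 control cells. Wfdc17 was detected in 20.3% of thinned control and 23.0% of thinned irradiated cells of this cluster, with intervals of 17.5% to 23.3% and 15.8% to 31.4%.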

How the results depend on the processing

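All 28 alternative values over all cells and all 36 at a fixed class mix were below 0, and 256 of 264 within classes were. In the order Ccl3, Ccl4, Ltb and Wfdc17, the log2 ratios over all cells were -2.63, -2.16, -2.06 and -2.16 with at most 5% mitochondrial UMIs, -2.58, -1.92, -1.99 and -1.95 with each cell weighted equally, -2.57, -1.96, -1.98 and -1.97 after thinning, and -2.75, -2.26, -2.36 and -2.28 without the 10 highest cells of each library. Leaving out the 6% highest doublet scores gave -2.24 for Wfdc17. At a fixed class mix they were -1.84, -1.22, -0.74 and -0.98 with the irradiated shares, -2.56, -1.64, -1.18 and -1.52 with each cell named by its own markers, -2.16, -1.37, -0.29 and -1.02 with neighbours from all cells, -1.99, -0.97, -0.72 and -0.79 at resolution 0.5, -2.01, -0.94, -0.56 and -0.68 at resolution 2, and -2.20, -1.12, -0.73 and -0.97 without the 10 highest cells. Thinning gave -2.0 for Ccl3, -0.84 for Ccl4 and -0.67 for Wfdc17. Leaving out marker genes from the clustering gave -0.55 for Ltb and -0.77 for Wfdc17, and the doublet scores gave -0.96 for Ccl4. The causes of these shifts were not tested.

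The number of the 4 genes at least 2-fold lower in HSC-like cells, 1 in the main result, was 2 with own markers, at resolution 0.5, without the 10 highest cells and in the smaller HSC-like cluster alone, the last an alternative chosen after seeing the data. In lymphoid-primed-like cells it was 3 in place of 1 with own markers, neighbours from all cells, resolution 2 and without the 10 highest cells, and in megakaryocyte-primed-like cells 2 in place of 4 without the 10 highest cells. In neutrophil-primed-like cells it was 0 in place of 1 with equal weights, without markers in the clustering, after thinning, without the highest doublet scores and without the 10 highest cells, where the log2 ratio of Ccl3 turned to 0.15 and the step takes away 10 of 105 control but 10 of 1038 irradiated cells. Wfdc17 in HSC-like cells was at 0.08 at resolution 2 and 0.66 without markers in the clustering. Listed genes at least 2-fold higher numbered 3 in the main result, 9 at a mean CPM of at least 1 and 0 at a mean CPM of at least 50, where fewer genes are tested. No paired analysis was possible because each group has 1 library and no result comes from a test.

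With 1 library per group, library, sort and irradiation cannot be told apart. The control library was shallower, and levels near 3 CPM in small clusters rest on few UMIs.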
